A study of Mus musculus with 4 samples.

Results

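The thermogenic fat genes described here are 9 genes that brown and beige adipocytes use to make heat: Ucp1, Elovl3, Cox8b, Cidea, Ppargc1a, Cox7a1, Dio2, Prdm16 and Cpt1b. They were found by exact gene symbol among the 55291 symbols counted in 4 RNA sequencing libraries of mouse pancreas. All 9 passed the filter on low counts. The genes were chosen by their counts in these same libraries, so their levels and differences are a description that no test supports. 2 libraries came from mice labelled Pdx1-Cre+, poh1f/+ (control) and 2 from mice labelled Pdx1-Cre+, poh1f/f (knockout). Both groups therefore carried the Pdx1-Cre recombinase, which is driven by a promoter active in the embryonic progenitors of acinar, duct and islet cells and not in adipocytes, and both carried at least a single floxed poh1 allele. The labels give no age, sex or treatment. Whether the libraries of a group are separate animals is not stated either, and a p-value here reflects library-to-library spread, which may be technical.

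Brown and beige adipocytes burn fatty acids in many small mitochondria and release the energy as heat. Noradrenaline from sympathetic nerves acts on beta-adrenergic receptors, lipases free fatty acids from the lipid droplet, and the uncoupling protein Ucp1 lets protons return across the inner mitochondrial membrane without making ATP. White adipocytes store fat and hold little of this machinery. Among the 9 genes, Ucp1 is the uncoupler, Prdm16 and Ppargc1a encode regulators of transcription, and Dio2 encodes the deiodinase that activates thyroid hormone. Elovl3 elongates fatty acids, Cpt1b brings them into mitochondria, Cox7a1 and Cox8b encode tissue-restricted subunits of cytochrome c oxidase, and Cidea coats lipid droplets. Several have other sources, since Cox7a1, Cox8b, Cpt1b and Ppargc1a are also used by striated muscle.

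Total counts were 22875618 to 27849730 per library. Levels are in CPM, which are counts scaled by each library's total, and a single count equalled 0.0342 to 0.0455 CPM. Psmd14, the current name of poh1, had 1354 and 1265 counts in controls and 1839 and 1906 in the libraries labelled knockout, so its RNA was not lower under that label and each direction below is a direction between labels. Acinar markers, which define the labelled tissue, were present in all 4 libraries, with a summed level of 13630 and 2731 CPM in control replicates 1 and 2 and of 218 and 706 CPM in knockout replicates 1 and 2. Knockout replicate 2 also carried enterocyte genes, 12 markers of which summed to 1241 CPM against 144 to 286 CPM in the other libraries. Most of the sum in those others was Anpep, at 245.5 and 190.9 CPM in controls and 126.4 CPM in knockout replicate 1. Sis and Alpi had 2508 and 756 counts in knockout replicate 2 and 0 elsewhere, whereas Vil1 was found in all 4 libraries.

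Ucp1, Elovl3 and Cox8b had at most 9 counts in either control and at least 20 in each library labelled knockout. Ucp1 lies on the plus strand of chromosome 8 (GRCm38), 83290352 to 83298452. Controls 1 and 2 gave 0 and 2 Ucp1 counts (0 and 0.0837 CPM), and knockout replicates 1 and 2 gave 217 and 521 (7.77 and 17.8 CPM). Both libraries labelled knockout lay far above both controls, and knockout replicate 2 was 2.29 times knockout replicate 1. The pooled counts of 2 and 738 gave a ratio of rates of 296, with a 95% interval from 81.8 to 2452 that covers counting error only. Elovl3 (chromosome 19, 46131897 to 46135694, plus strand), whose product makes very long fatty acids in brown fat, had no count in either control and 21 and 20 counts in the libraries labelled knockout. With a floor of 3 counts for the controls together, the ratio of rates of Elovl3 was 11. Without that floor, its 95% interval began at 8.53 and covers counting error only. Its level there was only 0.752 and 0.685 CPM, close to each other. Cox8b (chromosome 7, 140898945 to 140900446, minus strand), which encodes the muscle and brown fat form of subunit 8 of cytochrome c oxidase, had 4 and 9 counts in controls and 126 and 226 in the libraries labelled knockout. That was 0.279 ± 0.138 CPM against 6.12 ± 2.28 CPM (mean ± SD, n = 2), with no overlap, and a 21.9-fold difference of the means.

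The promoter bases before the transcription start are shown for Ucp1 and Cox8b, which were more abundant than Elovl3 under the knockout label. They are also shown for Dio2, whose group means did not differ. They hold 250 bases upstream of the RefSeq start on GRCm38.p6, read 5′ to 3′ on the strand of the gene, at chr8:83290098-83290347 (plus) for Ucp1, chr7:140900447-140900696 (minus) for Cox8b and chr12:90739039-90739288 (minus) for Dio2. Capitals mark matches, on either strand, to the cyclic AMP response element TGACGTCA, to its shorter form TGACG, which lies within it, and to the nuclear receptor core site AGGTCA.
Ucp1: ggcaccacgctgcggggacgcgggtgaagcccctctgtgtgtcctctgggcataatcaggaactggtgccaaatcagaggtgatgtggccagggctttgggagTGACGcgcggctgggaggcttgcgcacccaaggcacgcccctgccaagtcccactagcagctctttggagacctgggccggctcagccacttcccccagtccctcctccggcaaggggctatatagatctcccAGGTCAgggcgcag
Cox8b: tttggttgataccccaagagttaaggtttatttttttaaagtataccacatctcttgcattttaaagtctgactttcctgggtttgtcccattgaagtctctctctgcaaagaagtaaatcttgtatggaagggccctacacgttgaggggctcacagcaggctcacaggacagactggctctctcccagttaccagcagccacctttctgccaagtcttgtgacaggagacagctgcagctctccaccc
Dio2: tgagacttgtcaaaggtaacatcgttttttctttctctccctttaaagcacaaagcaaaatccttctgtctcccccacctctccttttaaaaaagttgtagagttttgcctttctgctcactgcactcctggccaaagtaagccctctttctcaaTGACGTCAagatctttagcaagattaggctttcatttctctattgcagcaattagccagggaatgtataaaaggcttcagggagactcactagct
The Ucp1 window held TGACG from 147 to 143 bases before the start and AGGTCA from 14 to 9 bases before it. The Dio2 window held TGACGTCA from 95 to 88 bases before the start, and the Cox8b window held none of these letters. For Dio2 the RefSeq start (90739038) differs from that of the annotation used for gene positions (90738438), so this distance depends on the start taken. RefSeq promoters were at hand for 6 of the 9 genes. Of the other 3 with a promoter, Ppargc1a held TGACG once on the opposite strand, from 49 to 45 bases before its start, and Cox7a1 and Prdm16 held no match. Neither the element of estrogen-related receptors, TCAAGGTCA, nor the PPAR element, searched as a direct repeat of AGGTCA with 1 base between and at most 1 mismatch in each copy, was found in any of the 6. Among 27025 mouse promoter windows of the same length, TGACG was found in 17.9%, AGGTCA in 13.8%, TGACGTCA in 1.62%, the PPAR element in 1.94% and the estrogen-related receptor element in 0.366%. The matches are a description of these windows and do not show binding.

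Ppargc1a and Cidea were detected in every library and were higher in the libraries labelled knockout by a much smaller factor. Ppargc1a (chromosome 5, 51454250 to 51567726, minus strand), the coactivator that drives mitochondrial biogenesis, was at 3.64 and 3.22 CPM in controls and at 7.74 and 10.1 CPM in knockout replicates 1 and 2. Cidea (chromosome 18, 67343604 to 67367785, plus strand) was at 2.68 and 2.09 CPM in controls and at 5.55 and 7.43 CPM in the libraries labelled knockout. Neither gene's groups overlapped, and the means differed 2.6-fold for Ppargc1a and 2.72-fold for Cidea. In both genes, as in Ucp1 and Cox8b, knockout replicate 2 was the higher of its group, by 1.31 and 1.34 times.

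In the remaining 4 genes the difference of the means was smaller still, absent or in the other direction. Cox7a1 (chromosome 7, 30184144 to 30186078, plus strand), the muscle and brown fat form of subunit 7a, had 29 and 17 counts in controls and 32 and 87 in knockout replicates 1 and 2. Its groups overlapped, since knockout replicate 1 (1.15 CPM) lay between the controls (1.32 and 0.711 CPM) and only knockout replicate 2 (2.98 CPM) stood above them. Without knockout replicate 2 the log2 ratio of mean CPM was 0.18, and it was 1.02 with it. Dio2 (chromosome 12, 90724552 to 90738438, minus strand) was at 2.55 and 3.56 CPM in controls and at 4.05 and 2.05 CPM under the knockout label, whose libraries held the highest and the lowest value of the 4, and both means were 3.05 CPM. Prdm16 (chromosome 4, 154316125 to 154636873, minus strand), the factor that directs precursors to the brown fat fate, was the 1 gene lower in both libraries labelled knockout. It was at 19.4 and 29.2 CPM in controls against 14.8 and 16.6 CPM under the knockout label, and the means stood in a ratio of 0.646. Without control replicate 2 its log2 ratio of mean CPM was −0.31, against −0.63 with it. Which cells of the controls, where Ucp1 had 0 and 2 counts, held the Prdm16 RNA was not tested. Cpt1b (chromosome 15, 89416405 to 89425863, minus strand) had 7 and 9 counts in controls and 12 and 14 in the libraries labelled knockout. Its groups did not overlap, at 0.32 and 0.38 CPM in controls against 0.43 and 0.48 CPM under the knockout label. The ratio of rates was 1.3 with a 95% interval from 0.674 to 2.61, which pools the libraries of a group and covers counting error only. Cpt1b shares 2744 exon bases on its own strand with the gene model Gm44502, listed at 0 counts in all libraries, so its counts may leave out shared reads.

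**Figure D1:**
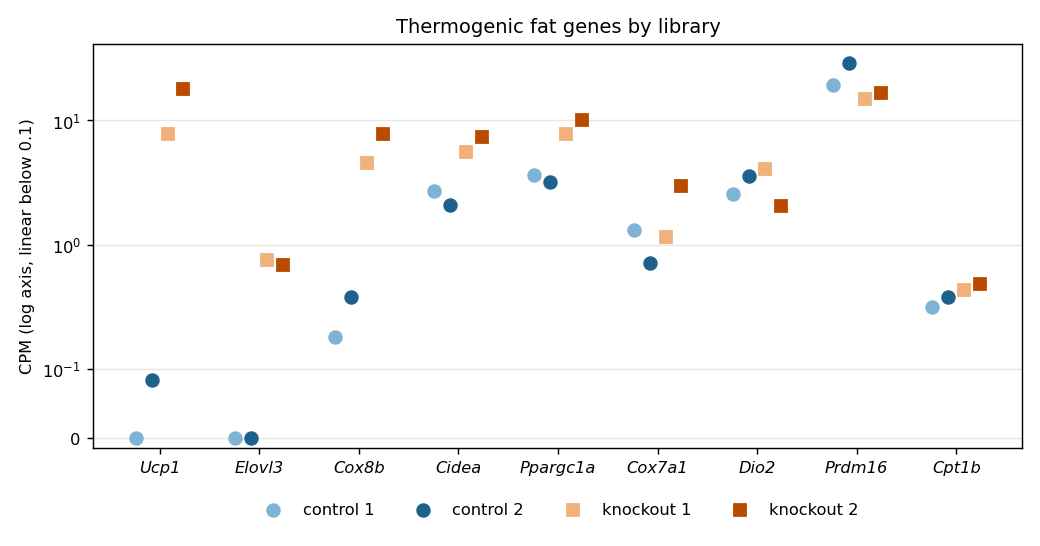
CPM of each thermogenic fat gene in each library, on a log axis that is linear below 0.1; circles are the control libraries and squares the libraries labelled knockout. Ucp1, Elovl3 and Cox8b stand apart between groups, Cox7a1 and Dio2 overlap, and Prdm16 lies lower in both libraries labelled knockout.

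By count, 6 of the 9 genes were above both controls in both libraries labelled knockout and 1 was below both. Of all 19134 genes tested, 34.4% were above and 33.7% below in the same sense. At an edgeR adjusted p under 0.05, 5 of the 9 were past the threshold as higher and none as lower, where 12.1% of all genes were higher and 9.95% lower. Nothing is read from these counts of the 9 genes, because the same difference chose them.

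Ordered by level per kilobase of exon, which allows comparison between genes, Prdm16 led the controls at a mean of 2.61 CPM per kb, followed by Cidea (2.14), Cox7a1 (1.9) and Cox8b (0.776). Dio2 and Ppargc1a followed at 0.525 and 0.52 CPM per kb, Cpt1b stood at 0.103 and Ucp1 at 0.0256, and Elovl3 had no count. Prdm16 (2.08 and 3.13 CPM per kb in the controls), Cidea (2.41 and 1.88) and Cox7a1 (2.46 and 1.33) overlapped, as did Dio2 and Ppargc1a. In the libraries labelled knockout Cox8b led at a mean of 17 CPM per kb, followed by Ucp1 (7.83), Cidea (5.82), Cox7a1 (3.86) and Prdm16 (1.68). Cox8b (12.5 and 21.5 CPM per kb) did not overlap Ucp1 (4.75 and 10.9). Ucp1 overlapped Cidea (4.98 and 6.66) there, and Cidea overlapped Cox7a1 (2.14 and 5.57). Ppargc1a (1.35), Dio2 (0.525), Elovl3 (0.364) and Cpt1b (0.135) had the lowest means per kb. The place of Cpt1b may be too low in both groups, since 2744 of its 3372 exon bases are shared with Gm44502. Prdm16 thus went from the highest mean in controls to the fifth in the libraries labelled knockout.

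Adipocyte RNA as a whole differed between the groups and between the controls, so each gene was set against the summed counts of Adipoq, which encodes the adipocyte hormone adiponectin, and Plin1, which encodes the droplet protein perilipin 1. Both are made in white and brown adipocytes. Their sum was 46.2 and 160.8 CPM in control replicates 1 and 2, and 1005 and 693 CPM in knockout replicates 1 and 2, an 8.21-fold difference of the means. In bulk tissue, more adipocytes and more RNA per adipocyte cannot be told apart. Ucp1 counts were 0 and 0.52 per 1000 Adipoq and Plin1 counts in controls, and 7.74 and 25.7 in the libraries labelled knockout. Elovl3 was at 0 in both controls and at 0.749 and 0.987 per 1000 in the libraries labelled knockout. Cox8b was at 3.94 and 2.34 per 1000 in controls and at 4.49 and 11.2 in the libraries labelled knockout, so that knockout replicate 1 lay just above control replicate 1. The log2 ratio of Cox8b on this scale was 1.32, and it was 0.52 without knockout replicate 2.

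The other 6 genes were lower relative to adipocyte RNA in both libraries labelled knockout. Cidea was at 58.1 and 13 per 1000 in controls and at 5.53 and 10.7 in the libraries labelled knockout, and Ppargc1a at 78.8 and 20 against 7.7 and 14.6. In both, most of the difference lay in control replicate 1, the library with the least adipocyte RNA. Without control replicate 1 the log2 ratio was −0.68 for Cidea and −0.85 for Ppargc1a, against −2.13 and −2.15 with it. Cox7a1 was at 28.6 and 4.42 per 1000 in controls and at 1.14 and 4.29 in the libraries labelled knockout, where control replicate 2 and knockout replicate 2 were almost equal. Without control replicate 1 its log2 ratio was −0.70, against −2.60 with it. Prdm16 was at 421 and 181 per 1000 in controls and at 14.8 and 23.9 in the libraries labelled knockout. Dio2 (55.2 and 22.1 against 4.03 and 2.96 per 1000) and Cpt1b (6.9 and 2.34 against 0.428 and 0.691) were also lower without overlap. On this scale 3 of the 9 genes were above both controls and 6 below, where 1.48% of all genes tested were above and 93.1% below. The median gene had a ratio of 0.0872. The ratio of means was 0.0642 for Prdm16, 0.0904 for Dio2, 0.121 for Cpt1b, 0.165 for Cox7a1, 0.225 for Ppargc1a and 0.228 for Cidea. Of these 6 genes, only Prdm16 lay below the median gene. The log2 ratios of Prdm16, Dio2 and Cpt1b were −3.96, −3.47 and −3.05, and −3.23, −2.66 and −2.06 without control replicate 1. The ratio was 2.49 for Cox8b and 64.3 for Ucp1. That of Ucp1 rests on 2 control counts, and its log2 value of 6.01 became 5.01 without control replicate 1 and 4.89 without knockout replicate 2. The scale was part of how the genes were chosen, and these counts are a description.

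**Figure D2:**
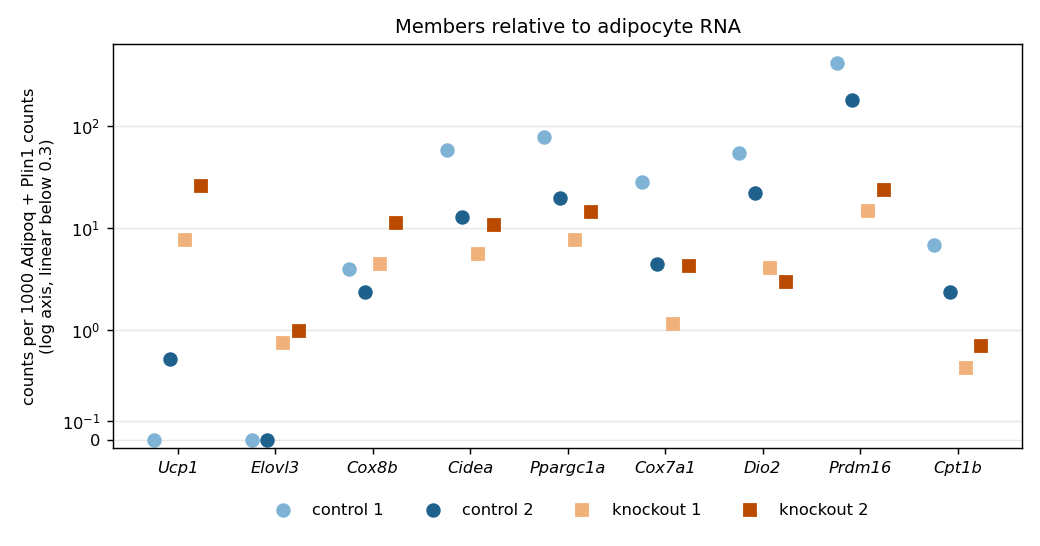
Counts of each gene per 1000 summed Adipoq and Plin1 counts in each library, on a log axis that is linear below 0.3; circles are controls and squares the libraries labelled knockout. Ucp1, Elovl3 and Cox8b lie higher in the libraries labelled knockout and the other 6 lie lower, with control replicate 1 highest for each of those 6.

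The 2 replicates of each group differed in adipocyte RNA, and the thermogenic genes went both ways beside it. Summed Adipoq and Plin1 CPM in knockout replicate 2 was 0.69 times that in knockout replicate 1, while Cox7a1 was 2.6 times, Ucp1 2.29 times and Cox8b 1.71 times as high. Prdm16 and Cpt1b stood at 1.12 and 1.11 times, and Elovl3 (0.91) and Dio2 (0.507) were lower, as the adipocyte sum was. Lep, which encodes the white fat hormone leptin, was at 100.5 CPM in knockout replicate 1 and 6.44 CPM in knockout replicate 2. In controls, summed Adipoq and Plin1 CPM in replicate 2 was 3.48 times that in replicate 1, and Cox8b (2.07 times), Prdm16 (1.5), Dio2 (1.4) and Cpt1b (1.18) were also higher in replicate 2. Ppargc1a (0.885 times), Cidea (0.779) and Cox7a1 (0.539) were lower there.

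Each gene was also set beside its closest paralogues, as its share of their summed CPM per kb. Cox8b made up 0.301% and 0.61% of Cox8a plus Cox8b in controls, and 6.42% and 10.5% in the libraries labelled knockout, while the common form Cox8a itself was 104.5 ± 1.31 and 113 ± 0.16 CPM (SD, n = 2). Cox7a1 made up 4.57% and 2.77% of Cox7a1 plus Cox7a2 in controls, and 4.26% and 9.48% in knockout replicates 1 and 2, which overlapped. Ucp1 made up 0 and 0.053% of the summed Ucp1, Ucp2 and Ucp3 in controls, and 5.85% and 12.5% in the libraries labelled knockout. Elovl3 was at 0 beside Elovl6 in controls and made up 10% and 6.91% of the pair in the libraries labelled knockout. Cpt1b stayed under 1% of Cpt1a plus Cpt1b in all libraries, with 0.473% the highest. Its level per kb was taken over all 3372 exon bases, of which 2744 are shared with Gm44502. This share may therefore be too low. Ppargc1a held 48.2% and 33.4% of Ppargc1a plus Ppargc1b in controls and 34.9% and 33.7% in the libraries labelled knockout. Dio2 held 6.22% and 7.53% of the summed deiodinases Dio1, Dio2 and Dio3 in controls, and 20% and 11.5% under the knockout label. Cidea held 20.5% and 3.46% of Cidea plus Cidec in controls, and 1.72% and 2.63% in the libraries labelled knockout.

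**Figure D3:**
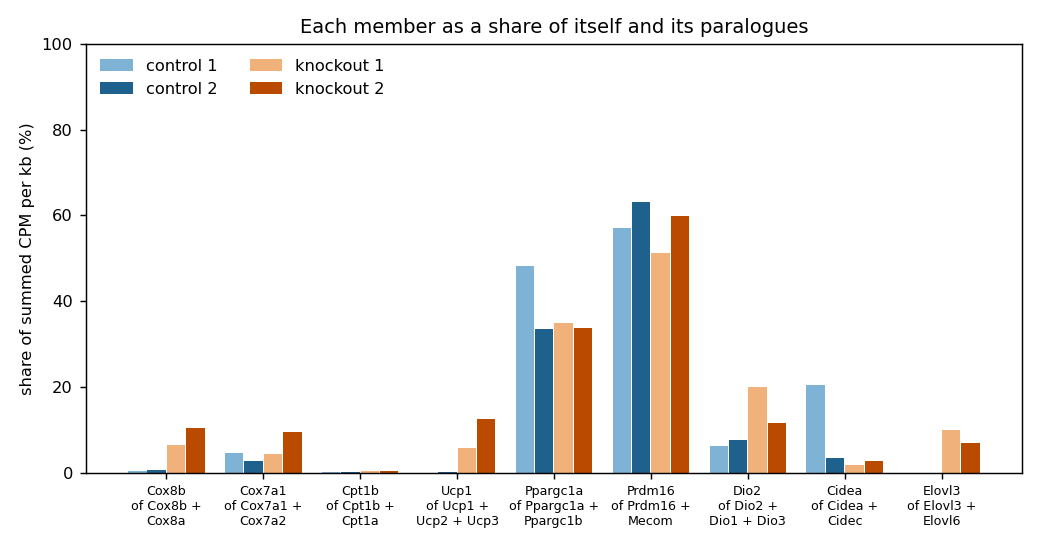
Share of each thermogenic fat gene in the summed CPM per kb of itself and the named paralogues, in percent, with 1 bar per library. Cox8b, Ucp1 and Elovl3 hold at most 0.61% in controls and 5.85% to 12.5% in the libraries labelled knockout, whereas Prdm16 holds 51.2% to 63.2% in all 4.

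The list of 19 paralogues held none of the chosen genes, but it too was set with earlier results of these data known. All 19 were tested, of which 3 rose (15.8%), 3 fell (15.8%) and 13 did not pass (edgeR adjusted p under 0.05). Of all genes tested 12.1% were higher and 9.95% lower. The median log2 fold change was −0.03, against −0.0018 for all genes tested. Cidec, the droplet protein of white fat, went from 17.4 and 97.1 CPM to 528 and 457 CPM (3.10 ± 0.80 on the log2 scale, SE; edgeR adjusted p = 0.0494). Ucp3, an uncoupling protein homologue, went from 1.23 and 4.27 CPM to 14.2 and 17.1 CPM (2.50 ± 0.57, edgeR adjusted p = 0.0375). Elovl6, an elongase of lipogenesis, rose from 12.3 ± 2.91 CPM to 26 ± 5.7 (1.08 ± 0.25, edgeR adjusted p = 0.0377). Dio3, the deiodinase that inactivates thyroid hormone, had a log2 fold change of −1.51 ± 0.25 (edgeR adjusted p = 0.0175). Cpt1c, a brain form of the carnitine palmitoyltransferases, fell by 1.11 ± 0.13 and the elongase Elovl1 by 0.40 ± 0.09 (edgeR adjusted p = 0.00834 and 0.0374). Ucp2, the broadly made homologue, was at 715.5 ± 72.2 and 498.5 ± 6.26 CPM and did not pass (edgeR adjusted p = 0.055), although DESeq2 (0.00107) and limma-voom (0.0402) called it lower and so did edgeR without control replicate 2 (0.0414). By edgeR none of the following passed either: Cpt1a (316 ± 34.8 and 241 ± 17.5 CPM; DESeq2 adjusted p = 0.0454), Mecom, the paralogue of Prdm16 (21.1 ± 2.23 and 16.8 ± 2.89 CPM), Cox7a2 (46.3 ± 3.23 and 47.8 ± 3.29 CPM) or Dio1 (1.47 ± 0.283 and 1.07 ± 1 CPM). Without control replicate 1, the calls of Ucp3 (edgeR adjusted p = 0.052), Elovl6 (0.155), Dio3 (0.08) and Elovl1 (0.0964) were lost, and without control replicate 2 those of Elovl6 (0.0673), Dio3 (0.0717) and Elovl1 (0.0504). Elovl1 was also lost without knockout replicate 1 (edgeR adjusted p = 0.191) or knockout replicate 2 (0.219), without scaling (0.0756) and with no filter on low counts (0.0566), and Cidec was lost with DESeq2 size factors (0.0506) or a minimum mean of 10 counts (0.0595).

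Other regulators and identity genes of brown and beige fat were higher in part. Of 20, 18 were tested, 9 rose (50%), 0 fell and 9 did not pass (edgeR, median 1.12), where 12.1% of all genes were higher and 9.95% lower. At an unadjusted edgeR p under 0.05, 12 were higher and 2 lower. DESeq2 and limma-voom also called 0 lower. Pparg, the master regulator of all adipocytes, went from 18.2 ± 0.118 to 52.5 ± 1.71 CPM (1.53 ± 0.11, edgeR adjusted p = 0.00308). Irf4, a partner of Ppargc1a in brown fat and also a lymphocyte factor, went from 12 ± 1.48 to 109.7 ± 5.94 CPM (3.20 ± 0.13, edgeR adjusted p = 0.00153). Ppargc1b, the paralogue of Ppargc1a, went from 3.13 ± 1.08 to 10.4 ± 2.32 CPM (1.73 ± 0.34, edgeR adjusted p = 0.0259). The following genes of the list are named after their values were seen. Tbx1 and Tmem26, described as beige markers, rose, with log2 fold changes of 3.36 ± 0.28 and 0.97 ± 0.21 (edgeR adjusted p = 0.00395 and 0.0321), and Tnfrsf9, a beige marker that activated T cells also make, by 2.14 ± 0.37 (edgeR adjusted p = 0.0191). Lhx8, a marker of classical brown fat, rose by 1.68 ± 0.29 (edgeR adjusted p = 0.0189), whereas Zic1, another, had 0 counts in all 4 libraries. Ebf2, an early factor of brown precursors, was at 15.2 ± 4.46 and 20.1 ± 4.16 CPM and did not pass (edgeR adjusted p = 0.332). The 2 genes lower at an unadjusted p under 0.05 were Cebpb (44.4 ± 2.44 to 33.8 ± 1.18 CPM) and Zfp516 (76.4 ± 9.88 to 60.7 ± 1.16 CPM). Neither passed (edgeR adjusted p = 0.063 and 0.1105). P2rx5 did not pass either (0.81 ± 0.29, edgeR adjusted p = 0.109), and Cited1 was too low to test. Without control replicate 1 this list had 4 genes higher, among which Ppargc1b was not (edgeR adjusted p = 0.102).

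Lymphocyte RNA moved with this list: 12 of 12 lymphocyte markers rose, where 12.1% of all genes were higher. Cd2 and Cd3d had the smallest p, at 2.53 and 1.12 CPM in controls against 45.9 and 25.5. The summed level of lymphocyte markers was 89.9 to 128 CPM in controls and 1364 to 1781 CPM in the libraries labelled knockout. The part of lymphocyte RNA in the higher Irf4 and Tnfrsf9 was not tested.

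Genes of adrenergic sensing and lipolysis rose in 7 of 14 cases (50%), with 0 lower and 7 not passing (edgeR, median 1.38). Of all genes tested 12.1% were higher and 9.95% lower. At an unadjusted edgeR p under 0.05, 8 were higher and 0 lower in the list, and DESeq2 and limma-voom called 0 lower. Pnpla2, the first lipase of the droplet, went from 118 and 179 CPM in controls to 514 and 477.5 CPM under the knockout label (1.74 ± 0.23, edgeR adjusted p = 0.0101). Prkar2b, a regulatory subunit of the cyclic AMP-dependent kinase, went from 26.4 ± 12.2 to 127 ± 11.4 CPM (2.27 ± 0.33, edgeR adjusted p = 0.0127). The receptor of adipocytes, Adrb3, named after its values were seen, was at 2.77 and 16.5 CPM in controls and 57.7 and 51.3 CPM in the libraries labelled knockout. It did not pass (2.50 ± 0.76, edgeR adjusted p = 0.0742), and its controls differed from each other by more than the Adipoq and Plin1 sum did. Plin5, a droplet protein of oxidative tissues chosen in the same way, rose by 1.57 ± 0.32 (edgeR adjusted p = 0.0279).

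Fatty acid uptake and oxidation genes rose in 9 of 19 tested cases of 20 (47.4%), with 0 lower and 10 not passing (edgeR, median 0.56). Of all genes tested 12.1% were higher and 9.95% lower. At an unadjusted edgeR p under 0.05, 12 of the list were higher and 1 lower, and DESeq2 and limma-voom each called 1 lower. Acsl1, which activates long-chain fatty acids, rose to 535.5 ± 12.6 CPM from 80.2 ± 42.6 in controls (2.74 ± 0.39, edgeR adjusted p = 0.0123). Acadm, the medium-chain acyl-CoA dehydrogenase, rose to 139 ± 8.7 CPM from 81.4 ± 3.63 (0.77 ± 0.10, edgeR adjusted p = 0.0107). Fabp3, the fatty acid carrier of muscle and brown fat, named after its values were seen, was at 7.87 ± 1.42 and 3.71 ± 0.896 CPM and did not pass (edgeR adjusted p = 0.0557). Without control replicate 1 the list had 1 gene higher and Acadm was not called (edgeR adjusted p = 0.0518); without knockout replicate 2 it had 6 higher.

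For the alternative heat cycles the list held 12 genes that cycle creatine or calcium. Of the 10 tested, edgeR called 3 lower and 0 higher, and 7 were not called (median −0.40), where 12.1% of all genes were higher and 9.95% lower; at an unadjusted p under 0.05, 2 were higher and 5 lower, and DESeq2 and limma-voom called 0 higher. The 3 that fell belong to creatine handling: Ckb, the creatine kinase of brain and brown fat (143.5 ± 16.7 to 76.3 ± 1.22 CPM), Slc6a8, the creatine transporter (172.5 ± 14.8 to 69 ± 18.7 CPM), and Gatm, which starts creatine synthesis (62.2 ± 4.29 to 33.6 ± 5.23 CPM; edgeR adjusted p = 0.01, 0.0152 and 0.0173). Ckmt2, the mitochondrial creatine kinase of muscle and brown fat, had 0 counts in controls and 1 and 3 in the libraries labelled knockout, and Sln, a regulator of calcium pumping, 0 in all 4. Ckmt1, another creatine kinase of the list, named after its values were seen, was at 5.64 and 8.66 CPM in controls. It was at 2.36 and 58.1 CPM in knockout replicates 1 and 2 and did not pass (edgeR adjusted p = 0.301). The calls of Slc6a8 and Gatm were lost without control replicate 1 (edgeR adjusted p = 0.0968 and 0.098) or control replicate 2 (0.0612 and 0.0599). Without control replicate 1 the list had 1 gene lower, and without knockout replicate 1 it had 1 higher. Acinar RNA moved the same way, with 8 of 12 acinar markers lower and a median of −5.25, among them the lipase gene Cel and the protease gene Ctrl (log2 fold changes of −6.45 and −5.43, edgeR adjusted p = 0.0214 and 0.0282). Both acinar calls were lost without control replicate 1 (0.0596 and 0.0643), where 1 of the 12 was called, and limma-voom did not call Ctrl (0.0608). The part of acinar RNA in these falls was not tested.

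Among 11 factors that brown fat secretes, 10 were tested, 1 rose, 2 fell and 7 did not pass (edgeR; median −0.38), where 12.1% of all genes were higher and 9.95% lower. DESeq2 called 2 higher and 4 lower, and without control replicate 1 edgeR called 0 lower. Nrg4, a neuregulin of brown adipocytes, went from 3.28 and 4.81 CPM to 15.8 and 17.7 CPM (2.05 ± 0.25, edgeR adjusted p = 0.00883). The chemokine Cxcl14 fell, with 72.4 ± 22.6 CPM in controls and 26.9 ± 6.91 under the knockout label (edgeR adjusted p = 0.0262), and its call was lost without control replicate 1 (0.116). Fgf21, the stress hormone, named after its values were seen, had 12 to 18 counts in every library.

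Of 18 respiratory chain subunits made in all tissues, 2 rose (11.1%, near the 12.1% of all genes tested), 0 fell and 16 did not pass (edgeR; median 0.14, range −0.35 to 0.45), with 3 higher and 0 lower at an unadjusted p under 0.05 and 0 lower by DESeq2 and limma-voom. The 2 were Ndufs1 of complex I (0.41 ± 0.09, edgeR adjusted p = 0.0359) and Sdha of complex II (0.45 ± 0.11, edgeR adjusted p = 0.0468). Both calls were lost with no filter on low counts (0.0578 and 0.059) and when any single library was left out (edgeR adjusted p from 0.0523 to 0.191 for Ndufs1 and from 0.0718 to 0.317 for Sdha). None of the 13 mitochondrially encoded genes was called by edgeR, DESeq2 or limma-voom, and 0 had an unadjusted p under 0.05; their summed level was 11550 to 11640 CPM in all 4 libraries.

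**Figure D4:**
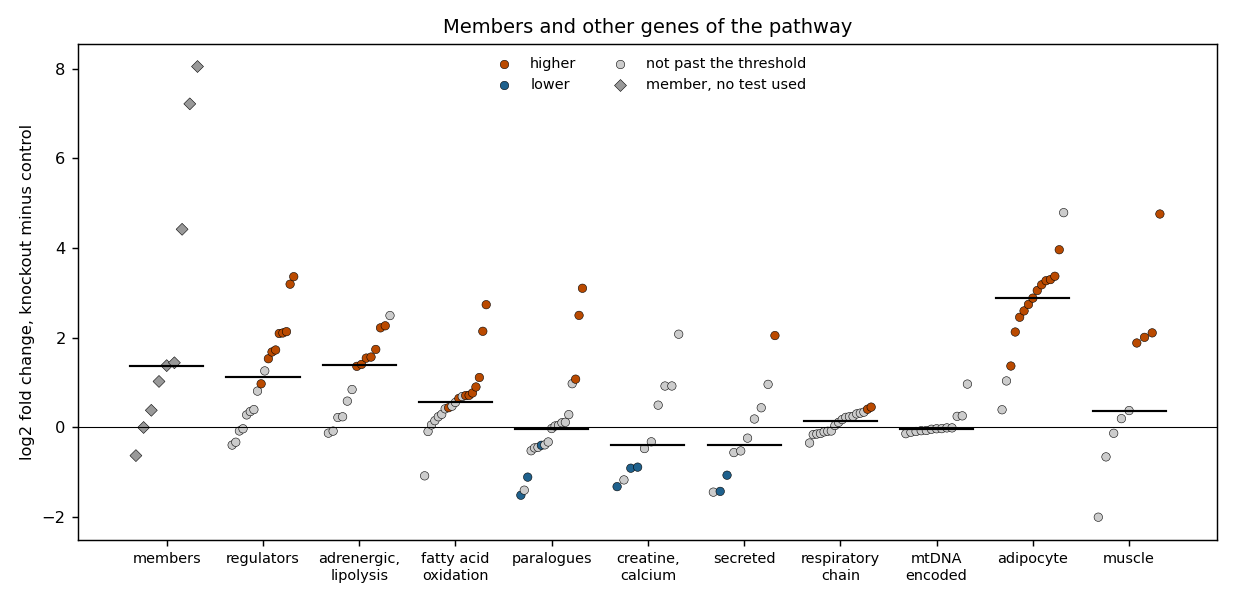
Log2 fold change, knockout minus control, of each gene in the lists, with a line at the list's median; filled colours mark genes past an edgeR adjusted p of 0.05 and grey diamonds the 9 chosen genes, whose calls are not shown. The 2 topmost diamonds are Ucp1 and Elovl3, whose fitted values depend on the handling of counts near 0 in controls. The regulator, lipolysis and adipocyte lists have medians of 1.12, 1.38 and 2.88, and the mitochondrially encoded list of −0.03.

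In all, 96 genes of the pathway beyond the 9 were listed and 90 tested, of which 29 rose (32.2%), 8 fell (8.89%) and 53 did not pass. Of all genes tested 12.1% were higher and 9.95% lower, so the share that fell was near the background. The 90 genes had a median log2 fold change of 0.41. Adipocyte markers rose beside them in 12 of 15 cases, with 3 not passing (median 2.88). The list includes Lep of white fat, which did not pass (edgeR adjusted p = 0.0638). It summed to 1047 and 1796 CPM in controls and 7638 and 5921 CPM in the libraries labelled knockout. Adipoq went from 30.8 and 102 CPM to 584 and 397 CPM (2.88 ± 0.60, edgeR adjusted p = 0.0298; 0.0538 without control replicate 1), and Plin1 from 15.4 and 58.7 to 421 and 296 CPM (3.27 ± 0.65, edgeR adjusted p = 0.0271). Fabp4, a fatty acid carrier, and Lpl, a lipase of capillaries, rose by 2.13 ± 0.32 and 1.37 ± 0.22 (edgeR adjusted p = 0.0143 and 0.0155; Fabp4 0.0534 without control replicate 1). The part of adipocyte RNA in the higher pathway genes was not tested.

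Skeletal muscle markers, relevant to Cox8b and Cox7a1, went both ways. Of 15, 9 were tested, 4 rose (44.4%: Ttn, Neb, Acta1 and Mylpf), 0 fell and 5 did not pass (edgeR, median 0.38). Of all genes tested 12.1% were higher and 9.95% lower. At an unadjusted edgeR p under 0.05, 4 of the list were higher and 1 lower, with 1 lower by DESeq2 and 0 by limma-voom. The giant sarcomere proteins Ttn and Neb rose from 1.01 ± 0.245 CPM to 27.4 ± 7.84 and from 2.4 ± 0.204 to 9.68 ± 0.927 CPM (edgeR adjusted p = 0.00262 and 0.00811; Neb 0.0513 without control replicate 1). The list had 1 gene higher without control replicate 1 and 2 without control replicate 2. The muscle creatine kinase Ckm, named after its values were seen, was at 2.64 and 9.37 CPM in controls and 1.9 and 1.09 CPM under the knockout label. The myosin gene Myh4 and the troponin gene Tnnc2 had 0 counts in all 4 libraries, Myh2 had 34 counts in knockout replicate 1 and 0 elsewhere, and myoglobin, Mb, had 1 to 8. The summed level of the list was 24.1 and 36.9 CPM in controls and 74.4 and 55 CPM in knockout replicates 1 and 2, and its part in the levels of Cox8b and Cox7a1 was not tested. Enterocyte genes were at their highest in knockout replicate 2 as well, although 0 of the 6 tested were called by edgeR or limma-voom, 1 by DESeq2, and 1 was higher at an unadjusted p under 0.05. Their part in the levels of that library was not tested.

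The median of the 9 genes' log2 CPM, centred on each gene's mean, was −0.53, −0.85, 0.48 and 0.91 in control replicates 1 and 2 and knockout replicates 1 and 2. Cidea (Euclidean distance 0.0289 over the 4 libraries) and Ppargc1a (0.119) lay closest to it, and Ucp1 (5.45) farthest. The median is made of these genes' own values, with Cidea giving it in control replicate 1 and knockout replicate 2. Genes in the middle of the 9 are therefore close to it by construction, and the distances carry no test. Among 12246 other protein-coding genes of at least 5 CPM in the libraries labelled knockout, leaving out immunoglobulin and T cell receptor genes, the 5 nearest were Klrd1, a receptor of natural killer cells (0.112), Kynu, a kynureninase (0.132), Fam78a (0.158), Pced1b (0.163) and Runx3, a transcription factor (0.164). None of the 5 is in the adipocyte list. The 4 points share their library and the 2 groups, so the likeness is mostly that of a common ratio between groups.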

How the data were processed

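Counts per gene symbol were analysed as the authors deposited them, as whole numbers that were not normalised, with 1 file per library. Per the submitters' processing notes, the genome build was GRCm38, and the tools were featureCounts 2.0.1, SAMtools 1.7, STAR 2.7.6a, Trim Galore 0.6.6 and FastQC 0.11.9. The strand setting, the treatment of multiple alignments and the annotation release were not given in the sources used here, so reads shared by overlapping genes may be split or dropped. Groups came from the sample titles.

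All genes were fitted together with edgeR 4.0.16 under R 4.3.3 (19134 genes left by filterByExpr; TMM factors; group-only quasi-likelihood test; Benjamini-Hochberg adjustment at 0.05). SE was the absolute log2 fold change over the root of F. CPM uses TMM-scaled totals of the tested genes. Exon lengths and positions came from GENCODE M21 (GRCm38), which holds 53292 of the 55291 symbols, and promoters from RefSeq. The fit was tested on simulated data. Alternatives were 2 scalings, 2 filters, DESeq2 1.42.0, limma-voom (limma 3.58.1), a replicate block, a threshold of 0.01, other adipocyte denominators and leaving out each library.

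The 9 genes and all lists were chosen with earlier results of these data known. Named beside the 9 were Psmd14, Adipoq, Plin1, the closest paralogues, the 2 called genes of smallest p per list and direction (every called gene up to 3), and the 5 genes nearest in profile, by log2 CPM with a prior count of 2. Other names were chosen after their values were seen. A gene of the secreted list that the rule names is not reported here.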

Additional observations from a re-analysis of the deposited data

How the results depend on the processing

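The counts of all genes called (2320 higher, 1904 lower) and of pathway genes called (29 higher, 8 lower) stayed within 1.5 times under other scalings, filters and limma-voom. At a threshold of 0.01 they were 644 and 323 of all genes, and 4 and 1 of the pathway genes. DESeq2 called 16 pathway genes lower. Leaving out 1 library gave 702 to 2338 genes higher and 424 to 1696 lower, and 13 to 31 pathway genes higher and 2 to 10 lower, each lowest without control replicate 1, where the single remaining control was taken to vary as much as the knockout libraries do. With the replicate number as a replicate block, 1960 genes were higher and 1432 lower, and 29 and 8 of the pathway genes. Same-numbered deviations correlated at 0.028 across genes. With 2 libraries per group, this value cannot show whether same-numbered libraries share more than a number, and the labels state no pairing. The block also lost the calls of Elovl1, Ndufs1 and Sdha (edgeR adjusted p = 0.0789, 0.0749 and 0.118). Without scaling the split was 2827 higher and 1527 lower. Of named genes, those that changed sign were not called: Cox7a2 (−0.0226 without control replicate 2, −0.0252 without knockout replicate 2; range over left-out libraries −0.0252 to 0.121) and Dio1 (0.27 without knockout replicate 1; range −2.03 to 0.27). Against 15 summed adipocyte markers the log2 ratio to adipocyte RNA was −0.91 for Cidea, −0.95 for Ppargc1a, −2.33 for Dio2 and 2.31 for Cox8b. Depth limits Elovl3 and Cpt1b most: the first had 41 counts in all.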
